A study of Rattus norvegicus with 8 samples.

Results

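Rat genes of glycolysis, of lactate and pyruvate handling and of the hypoxia response were followed over 8 arrays of granulosa cells, which line the ovarian follicle around the oocyte. The 34 genes were chosen by name, and a probe set stood for a gene only where the platform annotation gave it that gene alone. The annotation held 33 of them, with 51 probe sets, and 28 were measured, out of 10513 measured among 14217 named genes of the arrays. Measured means here that a probe set of the gene exceeded the middle signal of its array on 2 or more of the 8 arrays. No named probe set was listed for Pkm, the pyruvate kinase of most tissues. The genes Hk2, Pfkfb2, Aldoc, Pdk2 and Egln3 did not reach the measured level, with at most 1 array above the median in any of their probe sets.

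Immature rats had received eCG, a gonadotropin that makes follicles grow, and after 24 h were given an eCG antibody, which sends follicles into atresia, or else pre-immune serum. The cells came from follicles of both kinds, all after eCG, and RNA was hybridised to Affymetrix rat genome arrays. The labels of the arrays differ by a number alone, so no array could be assigned to the antibody or the serum group and no comparison of the treatments was made. Strain, age in days and any pooling of animals are not given in the sources used here. What can be described is the value on every array and how the genes vary over the 8 arrays, whose number limits the precision. Arrays are called by their label number, and a series of 8 values always runs 2074, 2076, 2194, 2195, 2196, 2197, 2198, 2199.

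Glycolysis splits glucose into pyruvate and yields ATP without oxygen. Pyruvate either enters mitochondria through the pyruvate dehydrogenase complex or is reduced to lactate, and lactate leaves the cell through monocarboxylate transporters. Granulosa cells lie inside a follicle wall without blood vessels of their own and are known for supplying the oocyte with pyruvate, which the oocyte cannot readily make from glucose. When oxygen is scarce the transcription factor HIF-1 is stabilised and binds DNA at a short core sequence, ACGTG or GCGTG, raising the expression of glucose transporters, most glycolytic enzymes, lactate dehydrogenase A and the vascular growth factor Vegfa.

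The promoters of 6 of the genes are shown because 4 of them (Gpi, Pfkfb3, Slc16a1 and Ddit4) had the pattern described below in which arrays 2074 and 2076 stood together above the rest, at an overall spread of at least 2-fold, while Ldha and Bnip3, classical hypoxia targets, did not. Aldoa, which also had the pattern at that spread, is left out for brevity. Each runs 5′ to 3′ along the gene from 250 bases before its start to 50 bases after it, as RefSeq gives it for the GRCr8 assembly. Capitals mark the core sequence on either strand, where ACGTG reads CACGT and GCGTG reads CACGC on the opposite strand, and the palindrome CACGTG holds ACGTG on both strands and counts as 2 matches. The windows lie at chr1:95993212-95993511 (minus strand), chr17:71944683-71944982 (plus strand), chr2:194812410-194812709 (plus strand), chr20:28436988-28437287 (minus strand), chr1:106507842-106508141 (plus strand) and chr1:203154913-203155212 (minus strand).
Gpi: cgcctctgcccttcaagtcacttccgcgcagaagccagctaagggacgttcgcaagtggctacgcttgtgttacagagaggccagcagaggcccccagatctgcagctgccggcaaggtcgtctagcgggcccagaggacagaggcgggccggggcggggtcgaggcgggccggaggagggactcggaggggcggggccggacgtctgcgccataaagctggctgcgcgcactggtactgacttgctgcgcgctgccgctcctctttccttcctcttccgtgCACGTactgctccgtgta
Pfkfb3: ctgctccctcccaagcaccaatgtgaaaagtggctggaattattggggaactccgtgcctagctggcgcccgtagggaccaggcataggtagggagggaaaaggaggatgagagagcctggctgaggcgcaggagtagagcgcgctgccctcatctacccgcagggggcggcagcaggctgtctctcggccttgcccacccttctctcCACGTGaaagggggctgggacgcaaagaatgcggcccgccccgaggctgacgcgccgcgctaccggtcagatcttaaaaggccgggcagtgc
Slc16a1: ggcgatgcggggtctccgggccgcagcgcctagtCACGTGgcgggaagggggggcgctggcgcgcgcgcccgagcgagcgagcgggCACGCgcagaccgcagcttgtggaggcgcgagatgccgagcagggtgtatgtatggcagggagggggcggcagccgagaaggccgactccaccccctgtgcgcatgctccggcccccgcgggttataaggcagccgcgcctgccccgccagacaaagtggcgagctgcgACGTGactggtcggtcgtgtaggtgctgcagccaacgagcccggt
Ddit4: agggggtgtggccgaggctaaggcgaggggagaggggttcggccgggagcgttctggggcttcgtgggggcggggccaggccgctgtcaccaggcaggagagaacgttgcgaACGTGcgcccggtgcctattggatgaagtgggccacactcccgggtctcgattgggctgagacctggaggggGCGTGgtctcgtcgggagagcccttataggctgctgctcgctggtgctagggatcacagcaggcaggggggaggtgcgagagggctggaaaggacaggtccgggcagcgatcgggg
Ldha: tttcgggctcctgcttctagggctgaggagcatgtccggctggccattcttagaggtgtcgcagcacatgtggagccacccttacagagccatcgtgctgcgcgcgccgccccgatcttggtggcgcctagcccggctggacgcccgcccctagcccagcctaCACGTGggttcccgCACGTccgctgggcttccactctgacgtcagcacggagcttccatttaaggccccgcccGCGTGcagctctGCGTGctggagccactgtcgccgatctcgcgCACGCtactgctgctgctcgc
Bnip3: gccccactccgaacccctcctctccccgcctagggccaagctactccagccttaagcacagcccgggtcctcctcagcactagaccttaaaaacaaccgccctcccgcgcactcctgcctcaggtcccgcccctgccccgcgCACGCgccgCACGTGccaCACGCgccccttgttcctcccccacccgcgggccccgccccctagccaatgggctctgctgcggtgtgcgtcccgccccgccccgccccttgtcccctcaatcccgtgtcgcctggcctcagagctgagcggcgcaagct
The Gpi window held 1 match, Pfkfb3 and Ddit4 held 2 each, Slc16a1 and Bnip3 4 each and Ldha 6. Of the 3 windows listed for Aldoa, not shown, the first and second held 0 and the third 1. A promoter was listed for 31 of the 34 genes, and 22 of the 31, or 71.0%, held the core in at least 1 listed window. Over all promoters listed, 33469 in number, 41.6% held it, and of the 27457 genes 44.6% did. The core contains a CG pair, and the windows of the listed genes were richer in G and C, with a median of 63.2% against 51.7% over all promoters. Among promoters at or above that 63.2%, 69.8% held the core. Counted by window too, but at any content of G and C, 23 of the 36 windows of the listed genes held it. A match describes the letters in this window and not a bound site.

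Array 2199 gave the lowest value in 16 of the 28 measured genes, where 12.4% of all measured genes had their lowest value there, and no member had its highest value on it. Arrays 2074 and 2076 both lay above the other 6 arrays in 9 members, or 32.1%, against 13.6% of all genes, and both lay below the others in 0 members against 14.5% of all genes. The 9 were Slc2a1, Hk1, Gpi, Pfkfb3, Aldoa, Eno1, Eno2, Slc16a1 and Ddit4, so 7 of them act in glucose uptake or glycolysis. The members' share of widely varying genes was close to that of all genes. The inner range, the fold between the second lowest and the second highest array, so that no single extreme sets it, was at least 2-fold in 9 of 28 members against 29.8% of all genes, and its median was 1.71-fold in both. Without array 2074 that count was 4 and without array 2076 it was 3, as against 18.8 and 18.7% of all genes.

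**Figure D1:**
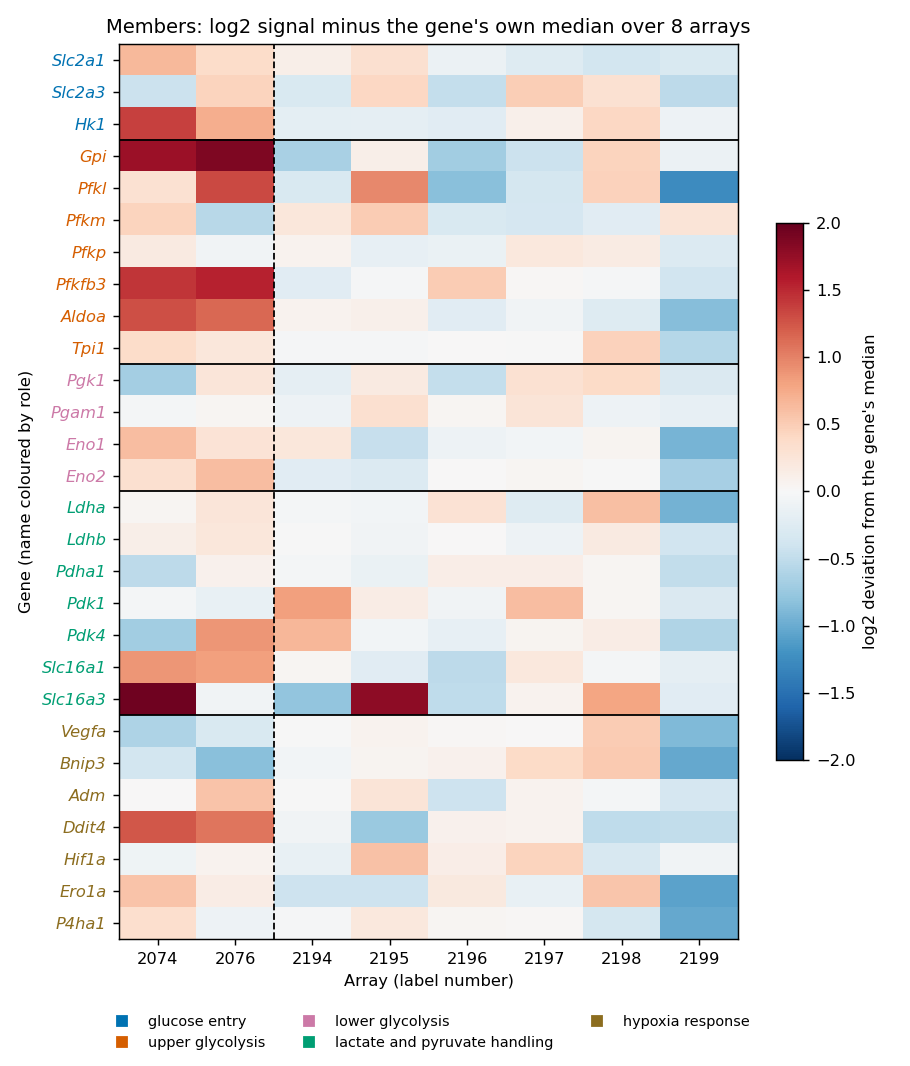
Rows are the 28 measured genes in order of role, columns the 8 arrays, and colour the log2 signal minus the gene's own median over arrays, after low signals were raised to a floor; the dashed line separates label numbers 2074 and 2076 from 2194 to 2199. The column of array 2199 is at or below the median in every gene but Pfkm, and the red cells of arrays 2074 and 2076 stand together in genes such as Gpi, Pfkfb3, Aldoa and Ddit4.

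The arrays also differed in measures that do not involve these genes. The deposited signals had been scaled to a trimmed mean of 1500.5 to 1500.6 on every array. Array 2195 had the highest floor, the 40th percentile to which low signals were raised, at 473 against 274 to 385 on the others. Its median correlation of log2 signals with the others was 0.780, against 0.827 to 0.844. Of the granulosa markers 10 of 11 were measured, with a summed signal of 395008 to 527916, and Cyp19a1, the aromatase, ranged from 991 on array 2076 to 20657 on array 2198. In 2 of the 10 markers, arrays 2074 and 2076 both lay above the rest, beside 13.6% of all genes and 9 of the 28 members. Inha, the inhibin alpha subunit, was at 90941 and 70224 on this pair and 26846 to 54328 elsewhere, and Foxl2, a granulosa transcription factor, at 10479 and 8134 against 3588 to 6959. The lists of other cell types had lower sums, but they also held fewer measured genes, and the share of cells of each type was not estimated. The summed signal of 8 theca and stroma markers was 3463 to 7999.7, that of 3 endothelial markers 304 to 2943, of 8 macrophage and leukocyte markers 5694 to 10719 and of 2 oocyte markers 261 to 1887. These sums use signals not raised to the floor. On some array, 6 of the 8 theca and stroma and 3 of the 3 endothelial markers were at the floor. So were 6 of the 8 macrophage and leukocyte and 2 of the 2 oocyte markers, so the low sums rest in part on weak signals. Both arrays of the pair lay above the rest in 1 of the 8 theca and stroma markers, beside 13.6% of all genes. This was the stromal collagen gene Col1a2, at 1944 and 1197 against 191 to 794. Col1a1, at 868 and 796 on the pair, was highest on array 2199, at 1005. Both lay below the rest in 1 of the 8 macrophage and leukocyte markers, beside 14.5% of all genes. This was the macrophage receptor gene Csf1r, at 180 and 528 against 875 to 1900, with array 2074 at the floor. Both lay above the rest in 0 of the 8. C1qa and C1qb were highest on array 2074, each being at the floor on 5 arrays. C1qa had 891 and 654 on the pair against 69.7 to 738, and C1qb 705 and 515 against 81.3 to 596. The macrophage lysozyme Lyz2, at 1505 to 5485, did not set the pair apart. Haemoglobin dominated the 3 erythroid markers, whose sum reached 49146 for array 2074 and 13603 for array 2076 and was 4299.8 to 10865 in the rest. The ratio of the 3′ to the 5′ control probe set of beta-actin, which rises as RNA or labelling becomes shorter, was 11 and 12.1 for the pair 2074 and 2076, beyond the 4.67 to 8.08 of the remaining arrays. The same ratio for Gapdh was 6.66 and 6.07 there, within the 5.27 to 8.81 of the others, with array 2199 at 7.99. The part of these differences in the results was not tested, and in bulk RNA fewer cells of a type and less RNA per cell cannot be told apart.

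Genes of glucose entry had 3 of 4 members measured and none with an inner range of 2-fold. Slc2a1, which encodes the widespread glucose transporter GLUT1, gave scaled signals of 4185, 3457, 2882, 3322, 2477, 2233, 2068 and 2173. Arrays 2074 and 2076 were the highest, but array 2195 at 3322 came within 1.04-fold of array 2076. Its inner range was 1.59-fold. Slc2a3 encodes the high-affinity transporter GLUT3 and gave 796, 1453, 870.2, 1434, 769.5, 1515, 1322 and 748, with an inner range of 1.89-fold. These values fell apart into 4 arrays at 748 to 870.2 (2074, 2194, 2196 and 2199) and 4 at 1322 to 1515, a split that Slc2a1 did not share, since the pair lay on the same side of their medians on 4 of 8 arrays. Hk1, the hexokinase that traps glucose in the cell as glucose-6-phosphate, gave 7345, 4704, 2493, 2529, 2439, 3059, 3805 and 2667. Array 2074 was 1.93 times the highest array of the run 2194 to 2199, array 2076 was 1.24 times it, and the inner range was 1.89-fold. The inducible hexokinase Hk2 was above the array's median on 1 array only.

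Upper glycolysis held the widest member. Gpi, which turns glucose-6-phosphate into fructose-6-phosphate, gave 11806, 13115, 2284, 3919, 2229, 2662, 4868 and 3296. The lower of arrays 2074 and 2076 was 2.43 times the highest of the other 6, so the values of the 2 label runs did not overlap, and the inner range of 5.17-fold was wider than that of 99.6% of genes. It was 2.12-fold without either of the 2 arrays and 1.72-fold over arrays 2194 to 2199. Only 1 probe set represents the gene.

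Aldoa, the aldolase of most tissues, gave 62267, 55946, 26776, 27236, 21635, 24033, 21156 and 14018. The 3 levels did not overlap: the lower of arrays 2074 and 2076 was 2.05 times the next array, 5 arrays lay within 21156 to 27236, and the lowest of these was 1.51 times array 2199. Its inner range was 2.64-fold, and 1.29-fold without array 2074 or array 2076. Pfkfb3, whose product makes fructose-2,6-bisphosphate, the strongest activator of phosphofructokinase, gave 5406, 5822, 1719.7, 1963, 2848, 2036, 1975 and 1536. Again 2074 and 2076 were highest, the lower of them 1.90 times array 2196, and 2199 was lowest. The inner range of 3.14-fold became 1.65-fold without either of the first 2 arrays. It rests on the brightest of 3 measured probe sets. Neither of the other 2, both much weaker, showed the pattern. One ran from 160.1 on array 2074 to 877 on array 2195. The other was highest on array 2074, at 870, but had 323 on array 2076, and its inner range was 2.58-fold. The mean of the 3 had an inner range of 1.35-fold.

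The 3 subunits of phosphofructokinase, the committing step of glycolysis, did not vary alike. Pfkl, the liver-type subunit, gave 1130.5, 2279, 736, 1784, 509, 715, 1257 and 382, an inner range of 3.50-fold. High values on arrays 2076 and 2195 and low ones on 2196 and 2199 made up this range, so that it was not set by the first pair of arrays. Over arrays 2194 to 2199 it was still 2.47-fold. The muscle-type subunit Pfkm gave 3353, 1689, 2880.3, 3504, 2007, 1959, 2119.8 and 2962. Its lowest array was 2076, where Pfkl was highest, and it was the only member above its own median on array 2199. A second, weaker probe set of Pfkm, at the floor on 4 arrays, had at least 3.36-fold against 1.71-fold in the main one, and their mean had 4.17-fold. Pfkp, the platelet-type subunit, gave 37877, 32031, 35098, 29929.5, 30579, 38657, 37642 and 27661 and had the narrowest inner range of upper glycolysis at 1.27-fold. Each pair of the 3 subunits lay on the same side of their medians on 4 of 8 arrays. Tpi1, which interconverts the 2 triose phosphates, varied little, with 6 arrays between 34246 and 44991, array 2198 at 47958 and array 2199 at 23487, and an inner range of 1.31-fold.

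**Figure D2:**
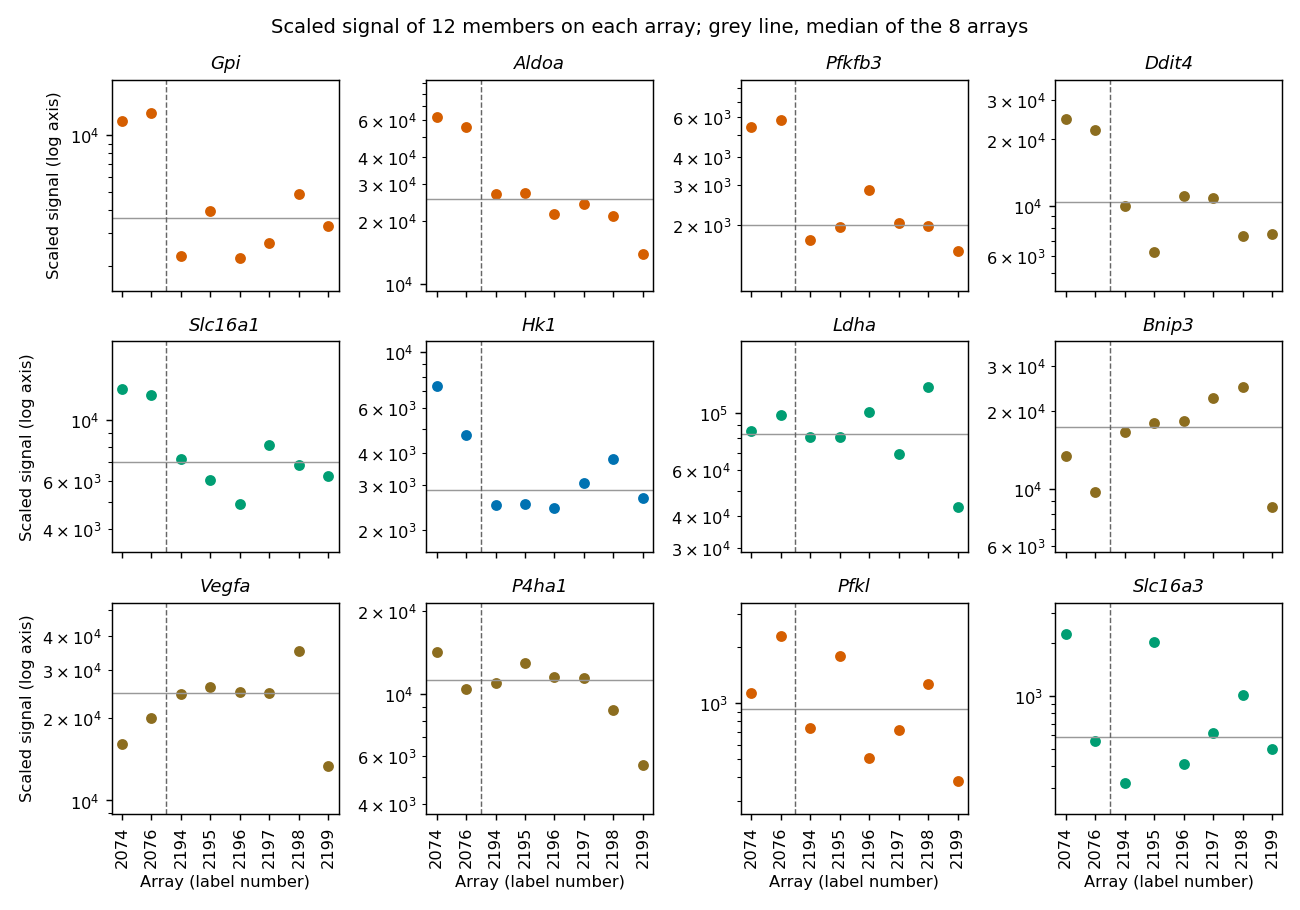
Each panel plots the scaled signal of one gene on each of the 8 arrays on a log axis, with a grey line at the gene's median and a dashed line between arrays 2074 and 2076 and arrays 2194 to 2199. In Gpi, Aldoa, Pfkfb3, Ddit4, Slc16a1 and Hk1 the first 2 points lie above the other 6, whereas in Bnip3 and Vegfa they lie below 5 of the other 6, and array 2199 is lowest in Ldha, Bnip3, Vegfa, P4ha1, Aldoa, Pfkfb3 and Pfkl.

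Lower glycolysis had 4 of 5 members measured, none with an inner range of 2-fold, and all 4 below their own median on array 2199. Pgk1, the first ATP-yielding enzyme, gave 56028, 105866, 79415, 101266, 64328, 111018, 116353 and 73244, with arrays 2074 and 2196 lowest and an inner range of 1.73-fold. Its other measured probe set gave 43311, 46051, 39842, 32252, 43739, 47224, 47594 and 24289, so that the low value of array 2074 did not recur there and array 2199 was lowest. The mutase Pgam1 gave 90829, 95338, 86290.4, 115982, 95293, 111257, 86484 and 83199 and was the narrowest of the group at 1.29-fold. The enolases, which make phosphoenolpyruvate, shared their outer arrays. Eno1, the form of most tissues, gave 38007, 30002, 29022, 18052, 23190.5, 23850.1, 25749 and 12953, and Eno2, the form named for neurons, gave 4743, 5823, 3243, 3155, 3831, 3894, 3758 and 2393. In both, arrays 2074 and 2076 were the highest and 2199 the lowest, although array 2194 at 29022 came within 1.03-fold of 2076 in Eno1. The inner range was 1.66-fold in Eno1 and 1.503-fold in Eno2. Over the 5 arrays between, they fell on opposite sides of their medians on 4 arrays.

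Gapdh, the glycolytic enzyme between the triose phosphates and Pgk1, is represented on this array by control probe sets, which stayed outside the counts. Its 3′ set gave 72185, 62721, 45464, 52448, 48026, 46489, 62723 and 35233. Array 2074 was highest and 2199 lowest, in the 3′ and the middle set alike, while arrays 2076 and 2198 were level in the 3′ set.

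Lactate dehydrogenase converts pyruvate into lactate and back. Ldha, its A subunit, gave 85372, 98480.0, 80935, 80418, 101139, 69541, 126658 and 43135. Array 2199 was lowest by a wide gap, the next lowest array being 1.61 times as high, while arrays 2074 and 2076 lay in the middle of the remaining 7. Its inner range was 1.45-fold and the full range 2.94-fold. Ldhb, the B subunit, gave 14533, 15697, 13334, 12660.3, 13383, 12417, 15202 and 10216, the narrowest inner range of all members at 1.22-fold. The subunits lay on the same side of their own medians on 8 of 8 arrays, the only one of the 8 isoform pairs compared for which this held. On arrays 2194 and 2196, however, Ldhb was almost at its median, at log2 values of -0.003 and 0.003 from it.

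Pyruvate entry into mitochondria was read from Pdha1, a subunit of pyruvate dehydrogenase, and from the kinases that switch the enzyme off. Pdha1 ran from 9343 to 14698 around a median of 13419, with arrays 2074 and 2199 at the bottom and the other 6 at 12186 or more. Its second probe set was weaker, at 250.5 and 268.6 for the same 2 arrays and 795 to 2604 elsewhere. The inner range was 1.53-fold in the brighter set, at least 7.47-fold in the weaker and 3.53-fold in their mean. Pdk1, a kinase gene induced by HIF-1, gave 929, 866, 1684, 1058, 909, 1472, 987 and 784, high on arrays 2194 and 2197, with an inner range of 1.70-fold. Its second probe set was highest on array 2195 and had 2.28-fold, so only the low value on 2199 was shared. Pdk4, a kinase induced by fasting, gave 205, 906, 776, 349, 435, 506, 543 and 322, at the floor on arrays 2074 and 2195, and its inner range was at least 2.41-fold. The values on those 2 arrays were too weak to be ordered.

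The 2 members that encode transporters of lactate and pyruvate across the membrane were both past 2-fold in inner range. Slc16a1, which encodes the transporter MCT1, gave 12961, 12379.7, 7184, 6027, 4908, 8134, 6865 and 6214. The lower of arrays 2074 and 2076 was 1.52 times the highest of the rest, and the inner range of 2.05-fold fell to 1.36-fold without either. Slc16a3, which encodes MCT4, the lactate exporter of strongly glycolytic cells, gave 2261, 555, 321, 2028, 409.7, 615, 1011 and 502. Its inner range of 4.95-fold was wider than that of 99.4% of genes and came from arrays 2074 and 2195. It was 2.46-fold without array 2074 and 2.45-fold without array 2195. The gene was weak, with array 2194 at the floor. The 2 transporters lay on the same side of their medians on 4 of 8 arrays.

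The hypoxia response genes had 7 of 8 members measured, all 7 below their own median on array 2199. By the brightest probe set of each gene, only Ddit4 had arrays 2074 and 2076 both on top. Ddit4, an inhibitor of mTORC1 signalling induced by hypoxia and other stresses, gave 24778, 22079, 10008, 6251, 11142, 10950.2, 7359 and 7471. The lower of the first 2 arrays was 1.98 times the highest of the rest. The log2 inner range was 1.59, and it fell to a log2 value of 0.60, which is 1.52-fold, without either of the 2. Bnip3, a mitochondrial protein of mitophagy and cell death, gave 13468, 9732, 16675, 18040.0, 18371, 22619.5, 24895 and 8497. Here arrays 2199, 2076 and 2074 were the 3 lowest, in that order, and the inner range was 2.32-fold, or 1.36-fold over arrays 2194 to 2199 alone.

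Vegfa, the vascular endothelial growth factor, gave 16109, 20055, 24553, 25965, 25093, 24854, 35273 and 13374. Arrays 2199, 2074 and 2076 were the 3 lowest as in Bnip3, arrays 2194 to 2197 lay within 24553 to 25965, and array 2198 was highest. The inner range was 1.61-fold. The weaker second probe set of Vegfa had array 2199 lowest too, at 708. It was highest on arrays 2074 and 2076, at 1745 and 1436, with array 2198 next at 1290. The place of this pair of arrays in Vegfa thus depended on the probe set.

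Hif1a, the oxygen-regulated subunit of HIF-1, gave 22008, 24522, 21076, 34879, 25531, 31616, 18700.5 and 22162, a log2 inner range of 0.59, and was highest on arrays 2195 and 2197. It was on array 2199 within 1.05-fold of its own median. The prolyl 4-hydroxylase subunit P4ha1, needed for collagen folding, gave 14208, 10462, 10985, 12907, 11498, 11428, 8762 and 5531, with the next lowest array 1.58 times array 2199 and an inner range of 1.47-fold. Ero1a, an oxidase for disulfide bonds in the endoplasmic reticulum, ran from 4176 to 12984 around a median of 8787 with an inner range of 1.95-fold, and its next lowest array was 1.58 times array 2199. Its weaker second probe set was lowest on array 2197 instead. Adm, the peptide adrenomedullin, was weak, at the floor on 4 arrays and highest on array 2076 at 587, with an inner range of at least 1.504-fold, or 2.53-fold with no floor.

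**Figure D3:**
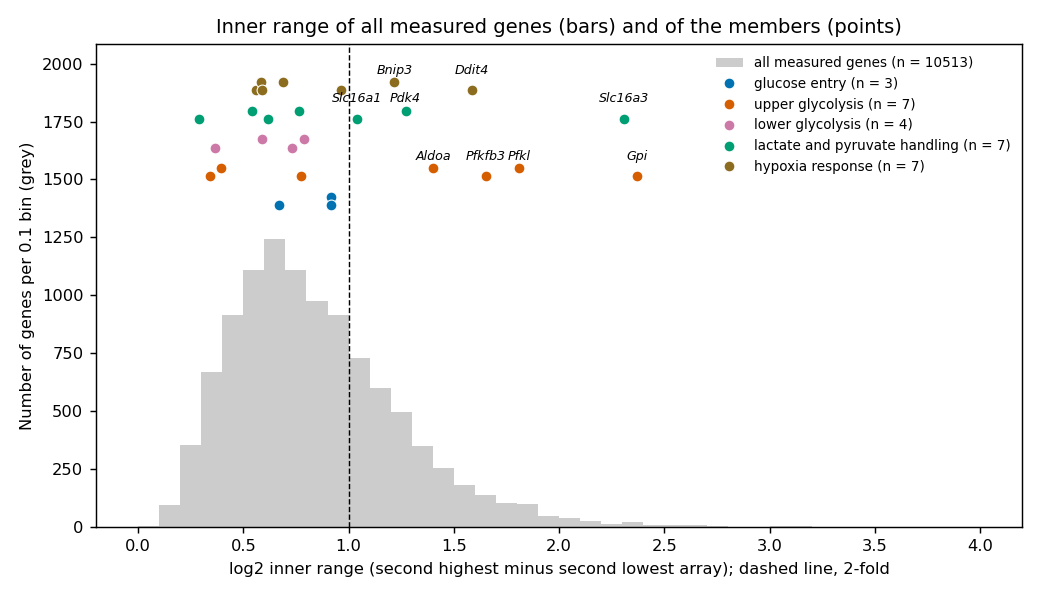
Grey bars count all 10513 measured genes by log2 inner range, and points mark the 28 measured members in rows by role, shifted slightly up or down where they would overlap; the dashed line is 2-fold. The 9 members past the line, named in the plot, are 4 of upper glycolysis, 3 of lactate and pyruvate handling and 2 of the hypoxia response.

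Set side by side, the roles differed in their median inner range, with 2.64-fold over 7 members of upper glycolysis, 1.89-fold over 3 of glucose entry, 1.70-fold over 7 of lactate and pyruvate handling, 1.61-fold over 7 hypoxia response genes and 1.58-fold over 4 of lower glycolysis, against 1.71-fold over all genes. These groups are small and the differences between them were not tested. Arrays 2074 and 2076 both exceeded the others in 2 of 3, 3 of 7 and 2 of 4 members of glucose entry, upper and lower glycolysis, and in 1 of 7 members each of the remaining roles. The median member lay above its own median by a log2 value of 0.32 on array 2074 and 0.24 on array 2076, where the median of all genes lay at -0.03 and -0.04.

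On array 2199 the median member lay at -0.44 against -0.01 for all genes, and 27 of the 28 members were under their own median against 52.2% of all genes. By role the lowest median there was that of the hypoxia response, at -0.89, with Ero1a, Bnip3, P4ha1 and Vegfa 1.85 to 2.09 times below their own medians. It was -0.48 in lower glycolysis, -0.39 in lactate and pyruvate handling, -0.38 in upper glycolysis and -0.30 in glucose entry. On the other 5 arrays from 2194 to 2198 the median member stayed between -0.09 and 0.10. Since 16 of the 28 members have a median signal at or above the 75th percentile of measured genes, the same count was taken among the genes at or above it. There 18.2% of 2629 genes were lowest on array 2199, and 11 of the 16 bright members were. Arrays 2074 and 2076 both lay above the rest in 16.5% of those genes and in 4 of the 16.

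**Figure D4:**
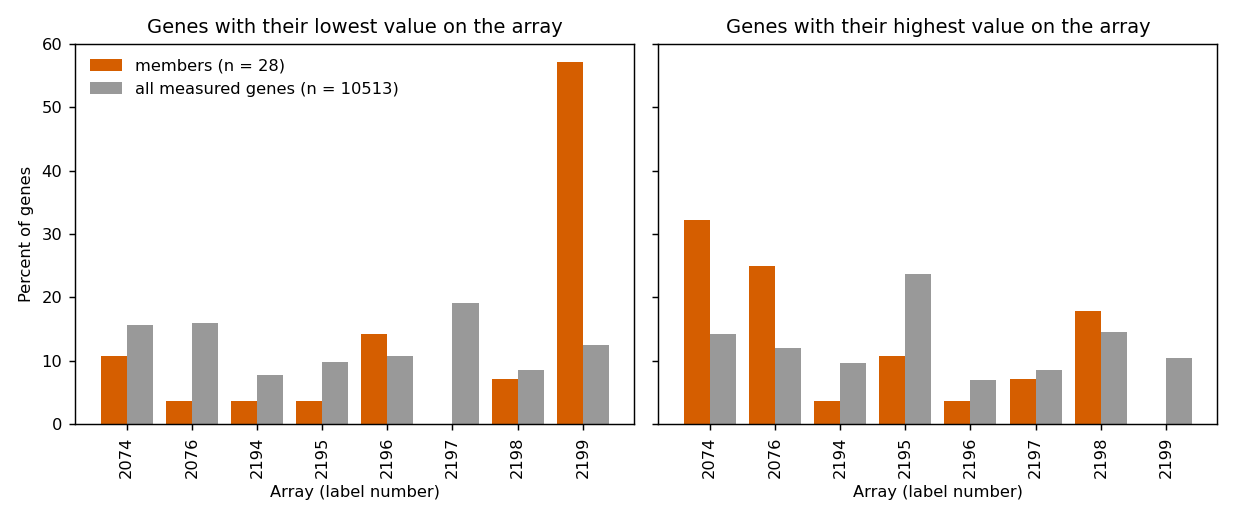
Bars give the percent of genes that have their lowest value (left) or highest value (right) on each array, for the 28 members in orange and all 10513 measured genes in grey. Array 2199 holds the lowest value of 57.1% of members and 12.4% of all genes, and 0 members are highest there.

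Further genes of these pathways, taken from lists of 71, were described in the same way. Of the 47 measured, 9 reached an inner range of 2-fold, beside the 29.8% of all genes, and this was 4, 3 or 5 when array 2074, 2076 or 2195 was left out, as against 18.8, 18.7 and 21.8% of all genes. Arrays 2074 and 2076 both lay above the others in 16 of the 47 and below in 2, beside 13.6 and 14.5% of all genes. Array 2199 was the lowest in 14, beside 12.4%. By list, the 2-fold inner range was reached by 2 of 13 genes of glycolysis and the pentose phosphate pathway, 3 of 13 of lactate and pyruvate handling and 4 of 21 of oxygen sensing and the hypoxia response. The widest of the first list were the glucose transporter gene Slc2a8, for which 2.38-fold is a lower bound because 3 arrays were at the floor, Gpd1, the glycerol-3-phosphate dehydrogenase, at 2.02-fold, and the transketolase Tkt at 1.90-fold. In the second they were Slc16a7, encoding the transporter MCT2, at 2.10-fold, Pdhb at 2.09-fold and the phosphatase gene Pdp1, which reactivates pyruvate dehydrogenase, at 2.05-fold. Pdhb, the beta subunit of that enzyme, was 1 of the 2 genes with arrays 2074 and 2076 below the others, at a lowest signal of 11019.7 on array 2076 and a median of 27698. In the third they were the collagen cross-linking oxidase Lox at 3.87-fold, P4hb at 3.60-fold and Ankrd37 with 2.20-fold as a lower bound, since 3 arrays were at the floor. P4hb, the partner subunit of P4ha1, had 40595 on array 2074 and a median of 11932, with both first arrays above the rest, which P4ha1 did not show.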

How the data were processed

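The deposited values are signal intensities of 31099 probe sets on 8 arrays, computed by the authors with the MAS5 algorithm (per the submitters' processing notes, which name no version). The trimmed means show that the authors had scaled each array. MAS5 is noisy at low signal, and detection calls were not used here. All 57 control probe sets were left out. The log2 signals of each array were shifted so that probe sets brighter than the array median on all arrays had 1 median throughout; values under the array's 40th percentile were raised to it (the floor) for inner ranges and counts, while printed signals are scaled only. Of 20832 probe sets with a single symbol, 20764 were found by gene identifier in the GRCr8 gene table, which changed 0 names; 436 with several symbols were left out. The brightest measured probe set stood for a gene.

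All arrays stayed unassigned, so no groups were compared, the only test was Dixon's ratio for a single outlying array, and counts are set beside those of all measured genes. The calculations (Python 3.11.15, pandas 2.3.3) were checked on simulated arrays. Members and lists were chosen with earlier results of these data known. Each member could be named, with 8 values where its inner range reached 2-fold, was the widest or narrowest of its role, or belonged to an isoform group so shown, and for Vegfa, Hif1a, Ldha and Slc2a1; Eno1 and Eno2, and the counts on array 2199, were added after values were seen. Of other pathway genes the 3 widest per list were named. Among markers, Cyp19a1, Inha and Foxl2 were set beforehand. The 8 values of Hk1 and the markers Col1a1, Col1a2, Csf1r, C1qa, C1qb and Lyz2 fell outside these rules. Alternatives were other scalings, floors, filters and probe set rules, the full range, and fewer arrays.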

Additional observations from a re-analysis of the deposited data

Results flagged for a closer look

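Of 25 members above the floor on every array, and their median deviation, 1 had a single array far from the others by Dixon's ratio at the 95% level. In Tpi1 the gap between array 2199, at 23487, and the next array, at 34246, took 0.528 of the whole log2 range. Chance gives about 1 such result in 20, and the part of array 2199 was not examined further than in the counts above.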

How the results depend on the processing

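With the full range in place of the inner range, 22 members and 35 other pathway genes reached 2-fold (71.4% of all genes) and the median log2 range of members was 1.38 (1.30 over all genes). Over arrays 2194 to 2199, 2 members (Pfkl and Slc16a3) and 2 other pathway genes did, where 11.5% of all genes did by the floors of the 8 arrays. Leaving out 1 array gave 3 to 8 members and 3 to 9 other genes, with 4 members without array 2074 and 3 without array 2076 (18.8 and 18.7% of all genes); other genes numbered 4, 3 and 5 without arrays 2074, 2076 and 2195. The median log2 inner range then ran from 0.60 to 0.75. Changing scaling, floor, filter or probe set rule gave 6 to 10 members. It was 6 of 24 (19.3% of all genes) where all arrays had to exceed their median and 10 of 28 (39.6%) with a lower floor or none, below the share of all genes. The count with arrays 2074 and 2076 both beyond the rest was 9 to 11 under every alternative that allowed it. Of these, 1 lay below the rest in the mean of probe sets and with no filter, and 2 without array 2199. In the main setting it was 9 of 28, beside 28.1% of all genes on either side. It was 10 of 33 (21.3%) with no filter and 9 of 24 (35.2%) where all arrays had to exceed their median. The count lowest on array 2199 was 14 to 18. Of all genes, 12.4% were lowest there in the main setting, and 9.20 and 15.3% in those 2 alternatives. No paired analysis was possible because the labels give no groups.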
